A study of Mus musculus with 12 samples.

Results

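The genes described here are 44 mouse genes that encode transcription factors of T cells, proteins known to act with FOXP3, and a pair of chromatin enzymes, Ezh2 and Kat5. They were chosen by name, with earlier results of these data known, so their shares are a description and not a test. All 44 symbols were found among the 21951 protein-coding genes of the GENCODE M21 annotation. ChIP-seq, which sequences the DNA recovered with an antibody to a protein, had been run for FOXP3 and for Ku70 (the product of Xrcc6). The FOXP3 sets came from regulatory T cells (Tregs) of Foxp3 Yfp-Cre mice, called WT here, and of Xrcc6 fl/fl Foxp3 Yfp-Cre mice, called KO, in which Cre is made where Foxp3 is active and the deletion is therefore meant for Tregs alone. The Ku70 sets came from Tregs and from conventional CD4+ T (Tconv) cells of Foxp3 Yfp-Cre mice. All groups, controls included, carried the Yfp-Cre allele on a C57BL/6J background, and the cells were sorted from spleen and peripheral lymph nodes as CD4+CD25+YFP+ (Tregs) or CD4+CD25-YFP- (Tconv). The study gives an age range for its mice as a whole and none for these libraries.

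Each of the 4 sets held 2 immunoprecipitated samples and 1 input, 12 samples in all, and was deposited as 1 list of regions called on the 2 merged replicates against the input. Nothing in a list shows the spread between replicates, so no test could be made, every value below stands without an error, and a difference between lists cannot be set against replicate variation. Sequencing depth is not in the lists, and the study's own summary of it was not used here, so the numbers of regions are not corrected for depth. The lists held 1751 regions (FOXP3, WT Tregs), 544 (FOXP3, KO Tregs), 5295 (Ku70, Tregs) and 1791 (Ku70, Tconv). Region names inside the lists carry iTreg, CKO and Teff as terms where the sample labels use Treg, KO and Tconv, and the labels were followed. The lists hold no expression values, so neither the sorted cell types nor the loss of Xrcc6 could be checked in them.

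FOXP3 is the forkhead factor that defines Tregs, and it binds DNA together with other factors, among them Runx1 with its partner Cbfb, NFAT proteins, Gata3 and Irf4. Much of its binding lies at enhancers that such factors have already opened, often within introns or far from the gene. Ku70 is a subunit of the Ku heterodimer, which binds DNA ends and acts in the repair of double-strand breaks.

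A member gene was counted as hit when the summit of a region, its highest point, lay inside the gene or within 50 kb of either end. By this rule 27 of the 44 members (61.4%) were hit in at least 1 list, beside 35.5% of all protein-coding genes, and 49 regions were involved. The members are long genes, with a median length of 61.3 kb beside 17.4 kb for all protein-coding genes, and a long gene catches more regions. The share was therefore also read against protein-coding genes within 10% of each member's length, which gave an expected 19.6 hit members (44.5%). Of the 44 members, 21 had regions of 1 list, 5 of 2 lists (Foxp1, Runx1, Nfkb1, Satb1 and Tcf12) and 1 of 3 lists (Tox). The remaining 17 had none: Foxp3, Runx3, Cbfb, Tbx21, Eomes, Bcl6, Stat3, Smad3, Irf2, Nfatc1, Nfatc3, Rel, Nr4a3, Hif1a, Elf1, Id3 and Kat5.

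The regions below are printed because they show 6 of the 8 FOXP3 regions at members, and Ku70 regions that were among the strongest member regions of their list or lay close to a start of the member. They are read from the plus strand of the GRCm38/mm10 reference, 5′ to 3′. Capitals mark matches, on either strand, to the short motif cores of RUNX proteins (TGTGGT), NFAT (TGGAAA), AP-1 (TGANTCA) or TCF (CTTTGA).
Foxo1, FOXP3 in WT Tregs, chr3:52376115-52376301: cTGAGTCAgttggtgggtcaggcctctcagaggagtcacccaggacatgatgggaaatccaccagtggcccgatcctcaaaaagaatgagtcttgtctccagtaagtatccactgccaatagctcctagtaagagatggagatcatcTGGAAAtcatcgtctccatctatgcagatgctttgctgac
Foxo3, FOXP3 in WT Tregs, chr10:42165040-42165242: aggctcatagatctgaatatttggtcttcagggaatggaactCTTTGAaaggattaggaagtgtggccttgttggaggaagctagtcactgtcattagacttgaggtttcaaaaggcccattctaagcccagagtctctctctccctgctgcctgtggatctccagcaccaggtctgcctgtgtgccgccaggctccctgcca
Tox, FOXP3 in WT Tregs, chr4:6893681-6893843: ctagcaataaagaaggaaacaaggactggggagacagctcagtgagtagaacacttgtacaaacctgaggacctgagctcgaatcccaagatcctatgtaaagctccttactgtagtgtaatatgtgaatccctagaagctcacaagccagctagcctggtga
Tox, FOXP3 in KO Tregs, chr4:6855828-6855967: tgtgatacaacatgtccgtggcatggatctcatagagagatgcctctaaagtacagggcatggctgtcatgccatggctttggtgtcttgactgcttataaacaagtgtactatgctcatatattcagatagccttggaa
Gata3, FOXP3 in KO Tregs, chr2:9888078-9888252: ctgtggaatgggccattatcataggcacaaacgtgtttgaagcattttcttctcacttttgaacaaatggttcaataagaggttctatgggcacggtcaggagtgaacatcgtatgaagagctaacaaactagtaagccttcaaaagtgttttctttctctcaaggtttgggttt
Bach2, FOXP3 in KO Tregs, chr4:32250601-32250800: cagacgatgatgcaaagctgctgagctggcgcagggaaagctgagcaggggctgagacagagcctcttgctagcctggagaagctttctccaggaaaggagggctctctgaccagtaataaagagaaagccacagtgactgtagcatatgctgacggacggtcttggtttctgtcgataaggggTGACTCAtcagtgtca
Foxp1, Ku70 in Tregs, chr6:99266024-99266222: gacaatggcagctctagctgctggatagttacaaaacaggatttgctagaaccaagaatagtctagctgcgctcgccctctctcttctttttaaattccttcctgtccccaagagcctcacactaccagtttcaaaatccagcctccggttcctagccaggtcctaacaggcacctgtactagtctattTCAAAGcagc
Tcf12, Ku70 in Tregs, chr9:71883882-71884080: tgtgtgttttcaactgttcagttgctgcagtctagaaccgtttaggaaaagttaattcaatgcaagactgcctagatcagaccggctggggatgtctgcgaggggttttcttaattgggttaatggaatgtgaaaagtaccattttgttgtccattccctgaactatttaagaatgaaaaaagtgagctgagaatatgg
Satb1, Ku70 in Tconv, chr17:51846547-51846710: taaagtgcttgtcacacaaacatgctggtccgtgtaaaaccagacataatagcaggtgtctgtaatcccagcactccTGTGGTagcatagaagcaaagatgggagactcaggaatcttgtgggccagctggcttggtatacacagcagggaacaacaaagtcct
Stat4, Ku70 in Tconv, chr1:52093283-52093439: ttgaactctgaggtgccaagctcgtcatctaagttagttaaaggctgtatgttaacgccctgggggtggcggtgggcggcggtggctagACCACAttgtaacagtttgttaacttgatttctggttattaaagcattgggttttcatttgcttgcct

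FOXP3 regions of WT Tregs lay at 3 members, Foxo1, Foxo3 and Tox (6.82%), beside 7.18% of all protein-coding genes, and length-matched genes gave an expected 4.35. FOXP3 regions of KO Tregs lay at 4 members, Bach2, Gata3, Tcf12 and Tox (9.09%), beside 2.65% of all protein-coding genes and an expected 1.51. Ku70 regions of Tregs lay at 18 members (40.9%), beside 23.4% of protein-coding genes and an expected 13.2. Ku70 regions of Tconv lay at 9 members (20.5%), beside 10.8% and an expected 6.02. With these windows the FOXP3 share of WT Tregs was no higher than the background, and those of the other 3 lists were above it. For 3 of the lists the direction depended on the setting. With a window of 10 kb, Ku70 of Tconv lay at 2 members, Foxp1 and Stat4 (4.55%, beside 4.66% and an expected 3.28), and with 3 kb at the same number (4.55%, beside 3.59% and an expected 2.76). For FOXP3 in WT Tregs, a −log10 p of at least 2 left 1 member (2.27%), above the background (1.71%, and an expected 0.844). By the nearest protein-coding start the 4 hit members (9.09%) lay above the share of all protein-coding genes (6.15%). They lay below the expected 4.24 from length-matched genes. With only the 544 strongest regions of each list kept, the Ku70 count in Tregs was 1 member, Nr4a1 (2.27%), beside 3.01% of protein-coding genes, and the count in Tconv was 3 members (Batf, Satb1 and Stat4), beside 3.08%.

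**Figure D1:**
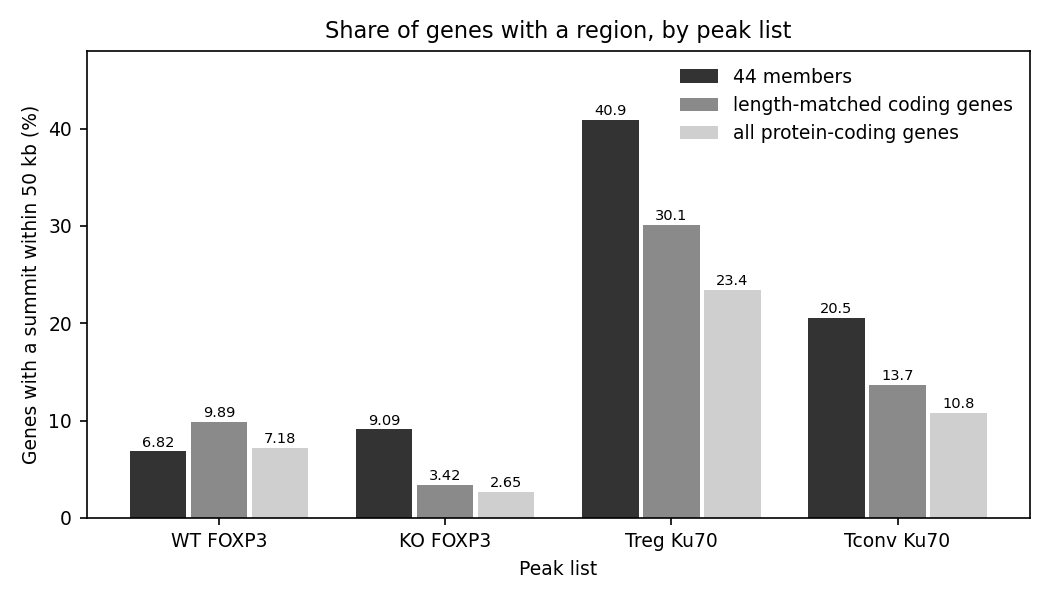
Share of the 44 members, of length-matched genes and of all protein-coding genes (y axis, %) with a region summit in the gene or within 50 kb, for each list (x axis). Members reach 40.9% in the Treg Ku70 list beside 23.4% of all protein-coding genes, and 6.82% beside 7.18% in the WT FOXP3 list; bars carry no error because each list is a single pooled call.

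Taken as regions per megabase, the member windows held 3.39 Ku70 regions in Tregs, beside 2.11 over the windows of all protein-coding genes. The corresponding densities were 1.09 and 0.831 for Ku70 in Tconv, 0.547 and 0.210 for FOXP3 in KO Tregs, and 0.328 and 0.629 for FOXP3 in WT Tregs. The last rests on 3 regions and the KO value on 5. Among the 29 members of at most 100 kb, Ku70 regions of Tregs lay at 10 (34.5%, beside 21% of protein-coding genes of that length), and among the 15 longer members at 8 (53.3%, beside 42.9%). FOXP3 regions of KO Tregs lay at 3 of the 15 longer members (beside 5.86% of protein-coding genes of that length) and at 1 of the 29 shorter (3.45%, beside 2.24%).

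Some members were shared between lists. Tox was the member hit by FOXP3 in both WT and KO Tregs, which is 33.3% of the 3 WT members and 25% of the 4 KO members (2.27% of all members, beside 0.642% of protein-coding genes). Foxp1, Nfkb1, Runx1 and Satb1 had Ku70 regions in both Tregs and Tconv, 22.2% of the 18 and 44.4% of the 9 (9.09% of all members, beside 3.52%). Tox was also the member hit both by FOXP3 and by Ku70 in WT Tregs (2.27%, beside 2.85%), 33.3% of the 3 and 5.56% of the 18. Length-matched genes gave an expected 0.317 members for the FOXP3 pair, 2.24 for the Ku70 pair and 1.97 for FOXP3 with Ku70. Of the 49 member regions, 0 overlapped a region of another list by 1 bp or more, beside 3.50% of all listed regions, a share so small that 49 regions give little to read from it.

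**Figure D2:**
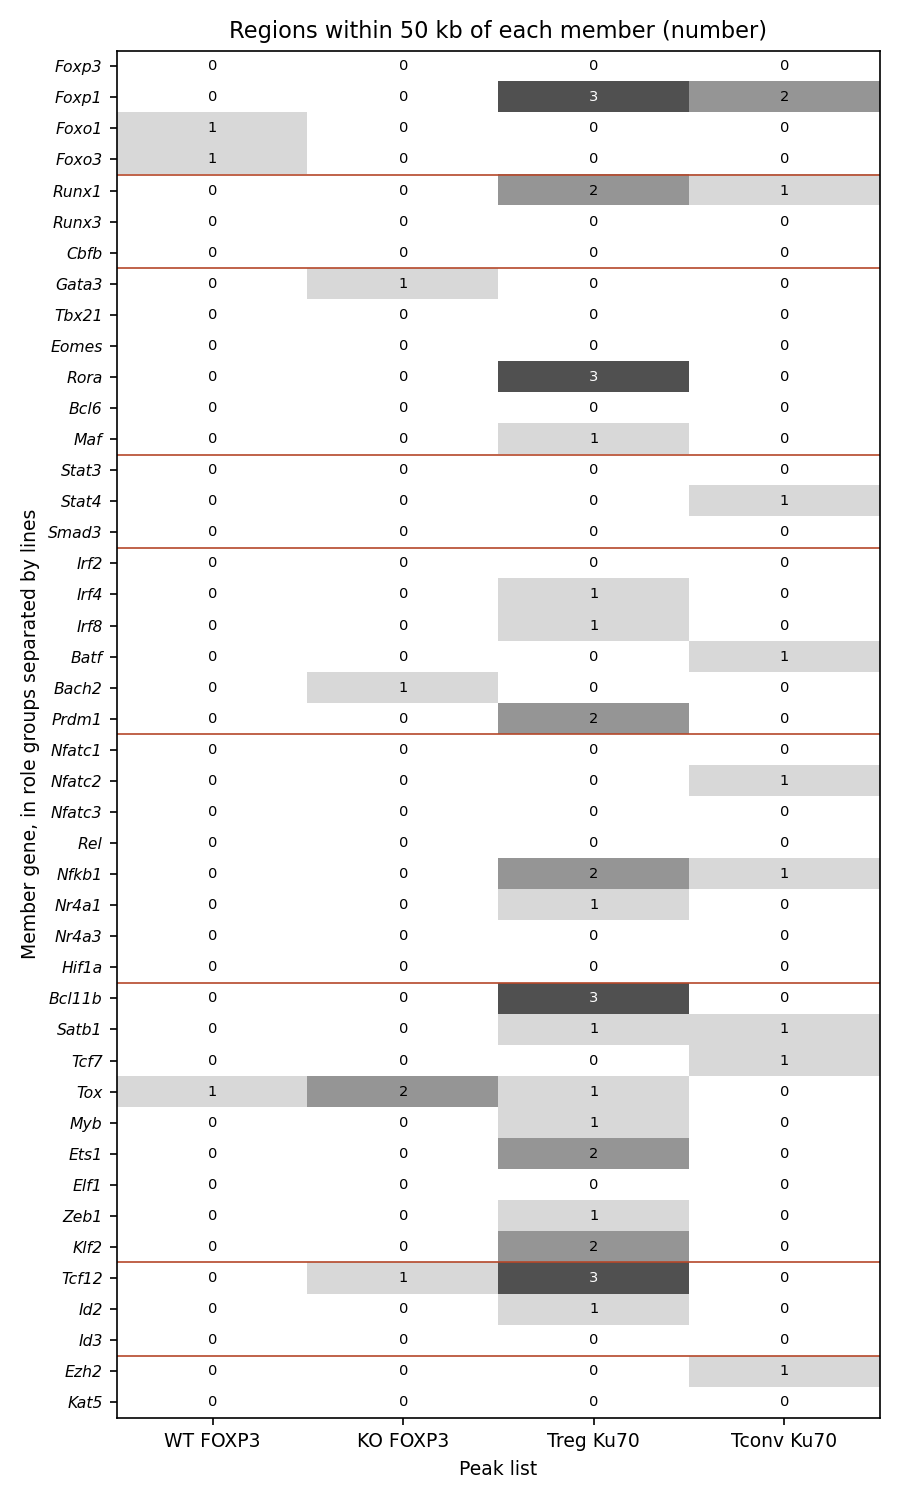
Number of regions at each member (rows, ordered by role) in each of the 4 lists (columns), with the count printed in the cell. Treg Ku70 is the fullest column with 31 of the 49 regions, and 17 members have none.

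Among the forkhead factors, Foxp3 itself had no region in any list. The nearest region to the gene lay 557 kb away for Ku70 in Tregs (1.85-fold over the input) and 3017 kb away for FOXP3 in WT Tregs, and those of the other lists lay 23549 kb (Ku70, Tconv) and 23617 kb (FOXP3, KO Tregs) away. Foxo1 and Foxo3 encode forkhead factors that are held out of the nucleus when Akt is active and that act in naive T cell and Treg maintenance. The Foxo1 region (FOXP3, WT Tregs) lay 23.0 kb beyond the end of the gene, at 2.44-fold over the input and a −log10 p of 2.44, and 7.71% of the regions in its list were stronger. The Foxo3 region of the same list lay 16.7 kb beyond the gene end at 1.84-fold and a −log10 p of 1.34, and 73.9% of its bases were repeat-masked. Both thus lay downstream of their genes, and the Foxo1 region was the strongest of the 3 FOXP3 regions of WT Tregs.

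Foxp1, which encodes a forkhead factor of T cell quiescence, had the most regions of any forkhead member, 3 from Ku70 in Tregs and 2 from Ku70 in Tconv. In Tregs 1 lay in an intron 0.462 kb from an alternative start of the gene (1.85-fold, −log10 p 1.47), 1 in another intron (2.04-fold, 1.47) and 1 beyond the gene end by 15.5 kb (2.04-fold, 1.47). In Tconv 1 lay in an intron (2.17-fold, −log10 p 2.10) and 1 beyond the end by 19.9 kb (2.19-fold, 1.92). The sequence under the summit of the last occurs 609 times in the genome, so its reads cannot be placed with certainty. The closest Treg and Tconv summits at Foxp1 lay 4.44 kb apart, and that pair rests on this Tconv region, whose summit sequence occurs 609 times. The next closest pair lay 94.3 kb apart. Foxp1 spans 597 kb, and 66 protein-coding genes are within 10% of its length.

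Runx1 encodes a DNA-binding partner of FOXP3, and it was the sole hit member of the Runx complex, with 2 intronic Ku70 regions in Tregs (2.22-fold and 1.85-fold, −log10 p 2.03 and 1.47) and 1 Ku70 region in Tconv 49.2 kb upstream (2.00-fold, 1.81). Repeats made up 96.5% of the stronger Treg region. Runx3, which acts in CD8 and cytotoxic programmes, and Cbfb, the shared partner of Runx proteins, had none.

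Of the 6 lineage factors, Gata3, Rora and Maf were hit (expected 2.44). Gata3, the factor of type 2 helper cells that is also used by Tregs in tissues, had a FOXP3 region in KO Tregs in an intron, 0.373 kb from an annotated start of the gene (2.04-fold, −log10 p 1.40). Rora, a nuclear receptor of type 17 helper and innate lymphoid cells, had 3 Ku70 regions in Tregs, 2 in introns and 1 in a UTR, at 2.00-fold to 2.22-fold. The protein-coding start nearest to the UTR region was that of Ice2, 16.8 kb away. Maf, a regulator of Il10 and of follicular helper cells, had 1 Ku70 region in Tregs 22.7 kb upstream (1.85-fold, −log10 p 1.47). Tbx21, Eomes and Bcl6, which direct type 1, cytotoxic and follicular fates, had none.

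Stat4, which carries the interleukin-12 signal, was the member of the STAT and SMAD group that was hit, by Ku70 in Tconv within an intron (2.63-fold, −log10 p 2.81, with 11.3% of the list stronger). Just inside the 50 kb limit lay regions at Tcf7 (45.7 kb), Nfkb1 (47.5 kb), Runx1 (49.2 kb) and Tox (49.7 kb). Stat3, the transducer of interleukin-6, and Smad3, that of TGF-β, had none.

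**Figure D3:**
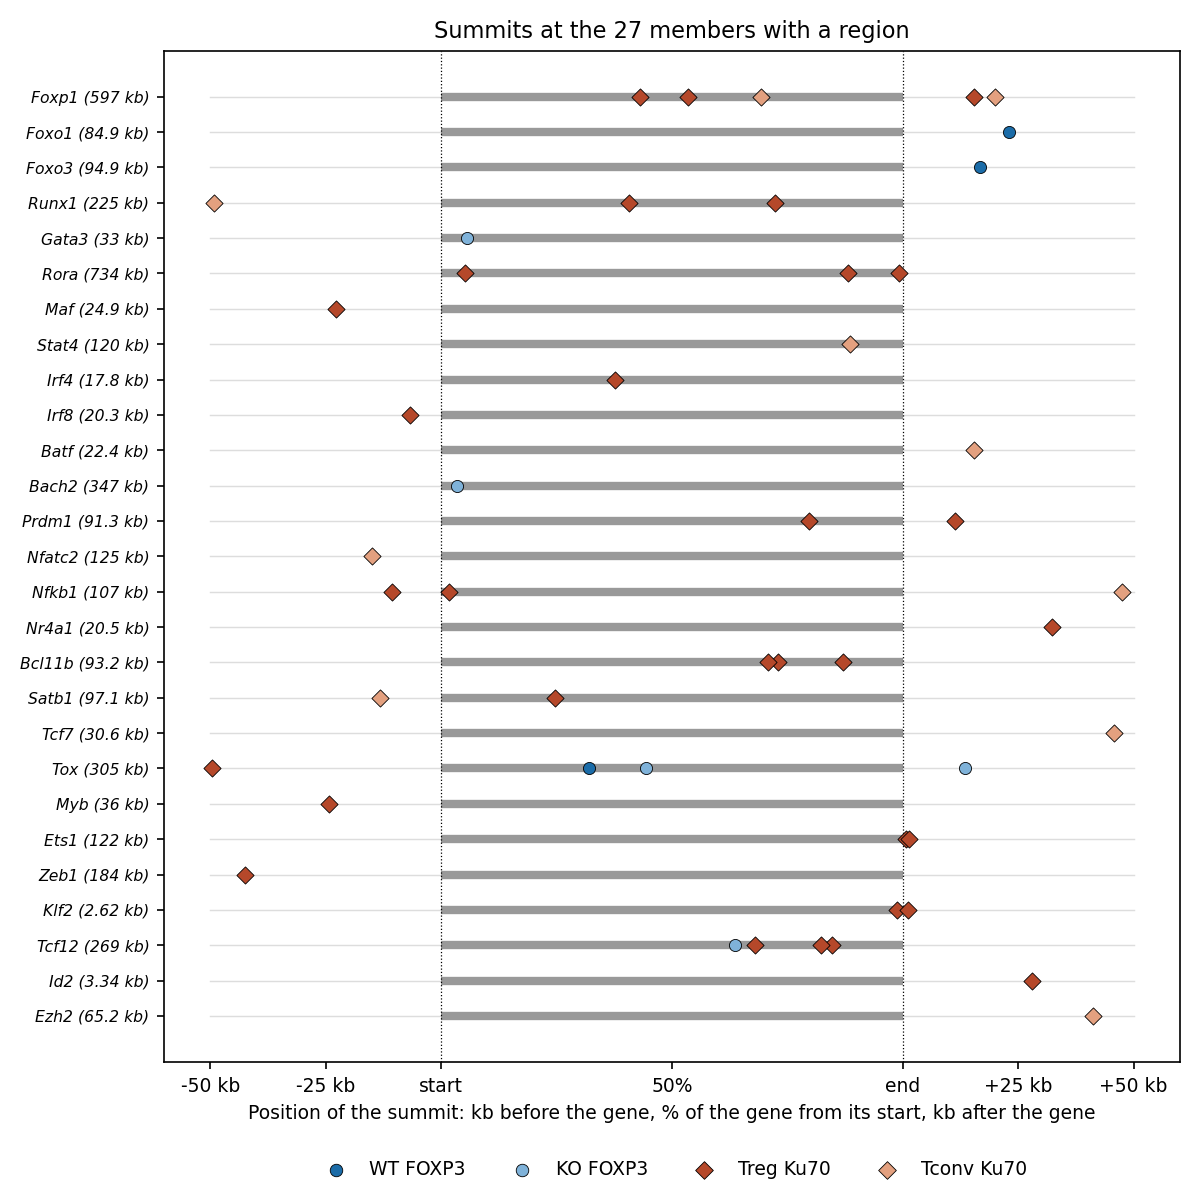
Position of the member regions relative to the member's start and end (x axis, kb, with the gene body scaled), drawn by list. Regions were spread over the gene body and both flanks, with 25 inside the member, 9 upstream and 15 downstream.

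Of the 6 IRF, AP-1 and effector factors, 5 were hit and Irf2 was not, with an expected 2.64 from length-matched genes. Irf4, needed for effector Tregs, had a Ku70 region in Tregs in an intron 6.69 kb from its start (2.41-fold, −log10 p 2.03). Irf8, of dendritic and B cells, had a Ku70 region in Tregs 6.64 kb upstream (1.85-fold, 1.47). Prdm1, encoding Blimp-1, had 2, in an intron 1.49 kb from an annotated start of the gene (1.81-fold, 1.42) and 11.3 kb beyond its end (1.85-fold, 1.47). Batf, an AP-1 factor of effector T cells, had a Ku70 region in Tconv 15.5 kb beyond its end (2.63-fold, 2.81) whose nearest protein-coding start was that of Flvcr2. Bach2, which restrains effector differentiation, had a FOXP3 region in KO Tregs in an intron, 2.90 kb from an annotated start of the gene, the strongest of the KO member regions (2.33-fold, −log10 p 2.02, with 14.0% of its list stronger). Its printed sequence holds an AP-1 core, in capitals, but too far from the summit to enter the motif counts given below.

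Of the 8 factors grouped here under T cell receptor signalling, Nfatc2, Nfkb1 and Nr4a1 were hit (expected 3.34). Nfkb1, encoding the p105 precursor of NF-κB p50, had 2 Ku70 regions in Tregs, in an intron 1.91 kb from the start (1.85-fold, −log10 p 1.47) and 10.6 kb upstream (2.36-fold, 1.96), and 1 in Tconv at 47.5 kb beyond its end, inside Manba, whose summit sequence occurs 107 times in the genome. Nr4a1, an immediate early gene of receptor signalling, had the strongest Ku70 region of the Treg members, 32.3 kb beyond its end (2.60-fold, −log10 p 2.64, with 4.15% of the list stronger). The protein-coding start nearest to that region was that of 6030408B16Rik, 13.8 kb away. Nfatc2, a calcineurin-activated factor, had a Ku70 region in Tconv 15.0 kb upstream (1.77-fold, 1.47), the lowest fold among the member regions.

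Of the 9 T cell identity factors 8 were hit in any list, with an expected 4.27 from length-matched genes, and 7 by Ku70 in Tregs, with an expected 2.86. Satb1, a chromatin organiser needed for Treg development in the thymus, had a Treg Ku70 region in a UTR, 0.250 kb from an annotated start of the gene (2.04-fold, −log10 p 1.47), and a Tconv Ku70 region 13.3 kb upstream, the strongest of the Tconv members (2.98-fold, 3.18, with 8.88% of the list stronger). Tox, a factor of thymic and exhausted T cells, had 1 WT FOXP3 region (2.26-fold, 1.82), 2 KO FOXP3 regions (1.90-fold and 2.04-fold, both 1.40) and 1 Treg Ku70 region 49.7 kb upstream (1.85-fold, 1.47). The WT and the nearest KO summit at Tox lay 37.8 kb apart, and the WT and the Ku70 summit 148 kb apart, so the lists met at Tox as a gene of 305 kb and not at a shared site.

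Bcl11b, which commits precursors to the T lineage, had 3 intronic Treg Ku70 regions, the closest pair 2.03 kb apart (1.85-fold to 2.04-fold, −log10 p 1.47 each). Ets1 had 2 just beyond its end, 0.630 kb apart (2.04-fold and 1.47 each), and Klf2, which keeps naive T cells in circulation, had 2 at and just past its end, 1.23 kb apart (2.22-fold and 2.41-fold, 2.03 each). These pairs at Ets1 and Klf2 made 4 of the 31 Treg Ku70 member regions that had a neighbour within 2 kb, beside 3.43% of the regions of that list. Myb had a Treg Ku70 region 24.3 kb upstream (2.56-fold, 2.34). Zeb1, a repressor of the Il2 promoter, had 1 Treg Ku70 region 42.5 kb upstream (2.22-fold, 2.03). It was wholly repeat-masked, and its summit sequence occurs 38 times in the genome. Tcf7, encoding TCF-1, had a Tconv Ku70 region 45.7 kb beyond its end (2.28-fold, 2.21) whose nearest start was that of Olfr1371. Repeats made up 78.9% of that region, and its summit sequence occurs 3 times in the genome.

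Of the E and Id proteins, Tcf12, encoding the E protein HEB, had 3 Treg Ku70 regions and 1 KO FOXP3 region. The strongest lay 0.749 kb from an annotated start of the gene (2.54-fold, −log10 p 2.56, with 10.4% of the list stronger). The KO FOXP3 summit (1.90-fold, 1.40) lay 11.5 kb from the nearest Ku70 summit. Id2, an inhibitor of E proteins, had a Treg Ku70 region 28.0 kb beyond its end (2.56-fold, 2.34) whose nearest start was that of Kidins220. Of the chromatin enzymes, Ezh2, the methyltransferase of Polycomb repressive complex 2, had a Tconv Ku70 region 41.2 kb beyond its end (2.10-fold, 1.68), inside Cul1. Kat5, encoding the acetyltransferase TIP60, had none.

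Of the 49 regions, 22 lay in introns, 3 in UTRs, 0 in coding exons, 9 upstream and 15 downstream, and the nearest protein-coding start was that of the member for 42. Regions within 3 kb of a start of the member made 2 of 5 for FOXP3 in KO Tregs (Gata3 and Bach2), beside 14.7% of regions over the windows of all protein-coding genes, and 6 of 31 for Ku70 in Tregs (19.4%, beside 14.0%). There were 0 of 3 for FOXP3 in WT Tregs (beside 9.34%) and 0 of 10 for Ku70 in Tconv (beside 14.8%). A start here is any annotated transcript start, in the member and background shares alike, and need not be the 5′ end of the gene. Of the 6 Treg Ku70 regions near a start, those of Foxp1, Tcf12, Prdm1 and Satb1 lay 256.67, 227.91, 72.78 and 23.91 kb inside from the 5′ end. That of Nfkb1 lay 1.91 kb from it, and that of Klf2 lay in a UTR at the end of the 2.62 kb gene, 2.59 kb from its start. The Bach2 region lay 11.86 kb and the Gata3 region 1.88 kb from the 5′ end. Gene bodies make up 51.8% of the member windows, and 18 of 31 Treg Ku70 regions (58.1%) but 2 of 10 Tconv Ku70 regions lay in them.

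The values that MACS2 gave the member regions were low. Their fold over the input ran from 1.77 to 2.98, and each had a −log10 q of 0, which is a q of 1. Regions with a q below 1 numbered 5 (FOXP3, WT Tregs), 8 (FOXP3, KO Tregs), 17 (Ku70, Tregs) and 9 (Ku70, Tconv) over the assembled chromosomes. The median −log10 p of the members was 1.47 for Ku70 in Tregs, which is also the median of the list, and 18 of the 31 carried exactly that value, the commonest of the list (47.4%). For FOXP3 in KO Tregs 4 of 5 carried the commonest value, 1.40 (55.1% of the list). A −log10 p of 2 or more was reached by 10 of 31 Treg Ku70 regions (beside 38.5% of the list), 5 of 10 in Tconv (49.1%), 1 of 5 in KO (34.2%) and 1 of 3 in WT (20.6%). In the lists of Ku70 in Tregs and of FOXP3 in KO Tregs most member regions were thus tied and cannot be ordered by strength. Summit sequences were single-copy in the genome at all 8 FOXP3 member regions (beside 64.9% of the WT list and 62.6% of the KO list). They were single-copy at 30 of 31 Treg Ku70 regions (96.8%, beside 71.4% of the list) and at 7 of 10 Tconv Ku70 regions (beside 67.1% of the list).

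**Figure D4:**
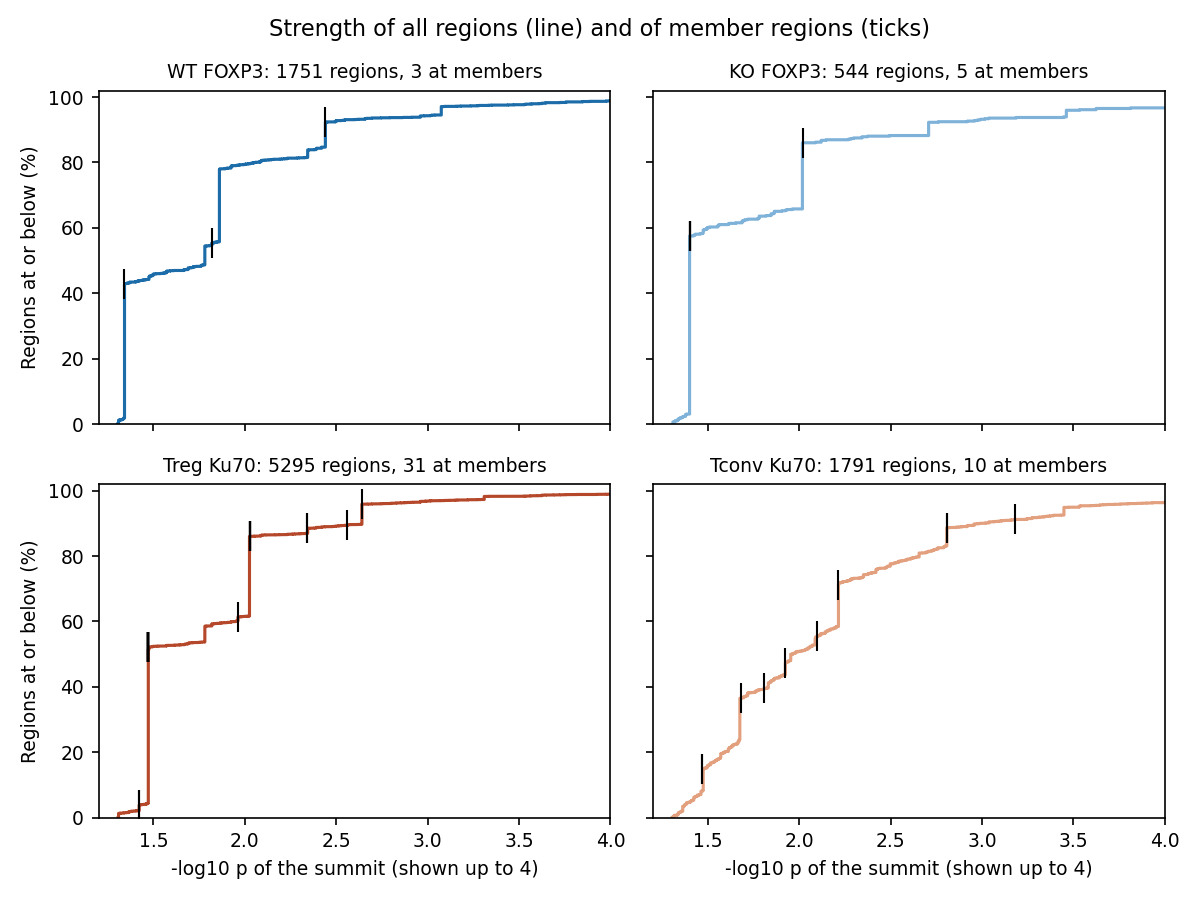
Cumulative share of the regions of each list (y axis, %) by −log10 p (x axis, shown up to 4), with ticks at the values of the member regions. Ticks of tied regions coincide, so the 18 Treg Ku70 regions at 1.47 show as 1 tick.

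Motif cores within 100 bp of the summit were counted on both strands, and matches of different motifs could overlap. Capitals in the printed sequences mark cores anywhere in the region. The AP-1 core printed at Bach2 (FOXP3, KO Tregs) and the TCF core printed at Foxp1 (Ku70, Tregs) lay farther from the summit and were not counted. The forkhead core TGTTTAC was met at 1 of the 49 member regions, that of Ezh2 in the Tconv Ku70 list (2.04%, beside 2.57% of all regions), and at 0 of the 8 FOXP3 regions. RUNX cores were met at 9 (18.4%, beside 15.8%), NFAT cores at 12 (24.5%, beside 20.4%), AP-1 cores at 4 (8.16%, beside 6.10%), the ETS core CGGAAG at 2 (4.08%, beside 2.36%), the GATA factor core AGATAA at 4 (8.16%, beside 10.4%) and TCF cores at 4 (8.16%, beside 16.4%). At Ku70 regions of Tconv, RUNX cores were met at 4 of 10, those of Foxp1, Stat4, Nfkb1 and Satb1, beside 16.5% of that list, and at Ku70 regions of Tregs at 3 of 31 (9.68%, beside 15.1%). A core of 6 or 7 letters occurs by its letters alone at many regions, and a match is not a binding site.

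A second list of 69 further transcription factors and chromatin genes was counted in the same way. FOXP3 regions of WT Tregs lay at 5 (7.25%, with an expected 5.81 from length-matched genes) and of KO Tregs at 1 (1.45%, expected 2.15). Ku70 regions lay at 20 in Tregs (29.0%, expected 18) and at 15 in Tconv (21.7%, expected 8.66). In this list the FOXP3 count of KO Tregs lay below the expected number, where at the 44 members it lay above it, and Lef1 was the gene behind it. The Lef1 region of KO Tregs (3.50-fold, −log10 p 3.46) overlapped a FOXP3 region of WT Tregs (3.19-fold, 3.76) in an intron.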

How the data were processed

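ChIP-seq for FOXP3 (WT and KO Tregs) and Ku70 (Tregs and Tconv) was analysed from 4 lists of regions. Per the study's methods, the authors trimmed reads (trim_galore), aligned to mm10 (Bowtie2), took out duplicates (picard) and called regions with MACS2 on 2 merged replicates against 1 input at p = 0.05 without its shift model; versions are not given in the sources used here, and the study's summary of depth was not used. The deposited columns hold, as the authors' caller wrote them, a score, the fold (a ratio over the input), −log10 p-values and −log10 q-values, and the summit offset in bases. Where a region had several summits, the strongest was used. No per-sample column was left unmatched.

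Summits were assigned to genes of GENCODE M21 (mm10) from gene start −50 kb to gene end +50 kb. The expected number of hit members is the sum, over members, of the share hit among protein-coding genes within 10% of the member's length. Motifs were searched within 100 bp of the summit, and copies of the 31 bases at the summit were counted in the genome. Sequences and repeat masking came from the mm10 reference. Calculations used Python 3.11.15, numpy 2.4.6 and matplotlib 3.10.9, and the counting was tested on simulated regions. Members and lists were chosen with earlier results of these data known. Regions described in full were those within 3 kb of a start of the member, those overlapping another list by 1 bp, members with 3 or more lists, and the 3 strongest member regions of each list; others are given by count or range, with further values for context. Alternatives were windows of 3, 10 and 100 kb, any overlap with the window, a −log10 p of at least 2, the 544 strongest regions of each list, single-copy summits, at most 50% masked bases, every listed summit, the nearest protein-coding start and autosomes only. Regions just outside the 50 kb limit are not reported here.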

Additional observations from a re-analysis of the deposited data

How the results depend on the processing

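Over 11 alternative settings, 49 counts of hit members stayed within 1.5 times the reported count and 28 did not. Some of the 49 could not have changed. Foxp3, the only member on the X chromosome, had no region, so keeping autosomes only left every member count as it was. The FOXP3 list of KO Tregs holds 544 regions, so lists of equal size kept all of it. With a window of 3 kb the counts were 1 (FOXP3, WT Tregs; expected 2.48 from length-matched genes), 11 (Ku70, Tregs, expected 7.32) and 2 (Ku70, Tconv, expected 2.76). For both Ku70 lists the count was 1 (expected 0.845), and for FOXP3 and Ku70 in WT Tregs 0 (expected 1.06). With 10 kb they were 1 for FOXP3 in WT Tregs (expected 2.76), 2 for Ku70 in Tconv (3.28), 1 for both Ku70 lists (1.01) and 0 for FOXP3 and Ku70 (1.18). With 100 kb the counts were 5, 14, 9 and 4 for the same 4 results. At a −log10 p of at least 2 they were 1 (FOXP3, WT Tregs, expected 0.844), 1 (FOXP3, KO Tregs, 0.620), 9 (Ku70, Tregs, 5.70) and 5 (Ku70, Tconv, 3.07). They were 0 for each of the 3 pairs of lists, beside an expected 0.0969 (both FOXP3 lists), 0.606 (both Ku70 lists) and 0.246 (FOXP3 and Ku70). With the 544 strongest regions of each list they were 1 (FOXP3, WT Tregs, expected 1.25), 1 (Ku70, Tregs, 1.58) and 3 (Ku70, Tconv, 1.71). They were 0 for each pair, beside an expected 0.193 (both FOXP3 lists), 0.213 (both Ku70 lists) and 0.144 (FOXP3 and Ku70). By the nearest protein-coding start, 7 members were hit by both Ku70 lists (15.9%, beside 2.29% of protein-coding genes and an expected 1.67). By FOXP3 and Ku70 3 were hit (6.82%, beside 3.08% and an expected 2.42). Length-matched expectations stayed within 1.5 times in 8 of 8 alternatives. Fewer regions or shorter windows can lower a count but not raise it, by construction, so the counts above are given with their expected numbers. The share of members hit by Ku70 in Tregs was 25% beside 8.98% of protein-coding genes at 3 kb (expected 7.32 members). It was 20.5% beside 10.4% at a −log10 p of at least 2, and 2.27% beside 3.01% with lists of equal size. For Ku70 in Tconv it was 4.55% beside 3.59% at 3 kb (expected 2.76) and 4.55% beside 4.66% at 10 kb (expected 3.28). No paired analysis was possible because each list was called on merged replicates, and leaving out a replicate could not be run for the same reason. List sizes were not corrected for depth.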
